A study of Mus musculus with 2 samples.

Results

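The cholesterol genes described here are 29 genes that make cholesterol, sense it, take it up, move it inside the cell, store it or export it, chosen by name from the 34788 gene names on the array. The list does not hold every gene of the pathway. It was divided by role into 7 enzymes of the early mevalonate pathway, 9 enzymes that make squalene and sterols, 5 regulators of the SREBP system, 4 genes of uptake and intracellular transport and 4 genes of export and storage. Total RNA of bone marrow-derived mast cells of C57BL/6 mice was measured on 2 one-colour Agilent arrays, 1 for cells transfected with a control siRNA and 1 for cells transfected with a GATA1 siRNA, each at 200 pmol. Both cultures were grown from marrow in interleukin 3 (10 ng/mL, 2 weeks) and then in interleukin 3 plus stem cell factor (each 10 ng/mL, 2 weeks), and each array carries a pool of samples from 2 animals. The age of the mice, the time from transfection to harvest and the part of the transcript that the siRNA targets are not given in the sources used here. GATA1 is a transcription factor of mast cells, erythroid cells, megakaryocytes and eosinophils. The comparison asks how transcripts of cultured mast cells differ when its level is reduced.

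Cells make cholesterol in the endoplasmic reticulum. Acetyl groups are joined and reduced to mevalonate, mevalonate is turned into isoprenoid units, and these are condensed to squalene, which is closed into a ring and trimmed to cholesterol. Many of the enzymes are transcribed under SREBP transcription factors, which the escort protein SCAP releases to the Golgi when membrane sterol is low and which INSIG proteins hold back when it is high. When sterols accumulate, oxysterols activate the LXR nuclear receptors, which raise the exporters ABCA1 and ABCG1 and the ubiquitin ligase MYLIP, a degrader of lipoprotein receptors. Mast cells use cholesterol-rich membrane domains in signalling by the IgE receptor.

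Promoter sequence is shown for 5 of these genes: the enzyme with the longest sterol regulatory element match (Hmgcs1), the early enzyme with the lowest difference (Mvk), and the regulator, transport gene and export gene with the highest differences (Srebf2, Mylip and Abca1). Each run is the 250 bases before the RefSeq transcription start (GRCm38.p6), read 5′ to 3′ on the gene's strand, and capitals mark every motif that was searched and found.
Hmgcs1: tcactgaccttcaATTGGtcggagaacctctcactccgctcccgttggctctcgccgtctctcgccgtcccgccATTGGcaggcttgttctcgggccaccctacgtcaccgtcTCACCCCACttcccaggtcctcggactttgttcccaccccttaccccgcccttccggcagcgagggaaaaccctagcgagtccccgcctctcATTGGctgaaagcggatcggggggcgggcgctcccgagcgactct
Mvk: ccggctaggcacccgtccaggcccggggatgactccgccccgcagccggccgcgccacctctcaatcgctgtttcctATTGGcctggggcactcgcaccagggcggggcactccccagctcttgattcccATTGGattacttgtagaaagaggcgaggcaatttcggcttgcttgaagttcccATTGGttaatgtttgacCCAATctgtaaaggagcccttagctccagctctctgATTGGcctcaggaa
Srebf2: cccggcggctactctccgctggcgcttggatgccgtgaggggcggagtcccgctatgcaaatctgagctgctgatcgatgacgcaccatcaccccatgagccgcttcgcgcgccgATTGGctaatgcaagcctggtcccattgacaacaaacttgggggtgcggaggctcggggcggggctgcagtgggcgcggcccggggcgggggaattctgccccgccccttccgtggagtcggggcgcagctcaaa
Mylip: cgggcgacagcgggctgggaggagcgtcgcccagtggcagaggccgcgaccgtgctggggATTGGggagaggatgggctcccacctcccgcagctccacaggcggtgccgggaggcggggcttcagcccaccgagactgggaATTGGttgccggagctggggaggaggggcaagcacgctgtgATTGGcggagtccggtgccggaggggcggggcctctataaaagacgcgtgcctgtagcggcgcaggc
Abca1: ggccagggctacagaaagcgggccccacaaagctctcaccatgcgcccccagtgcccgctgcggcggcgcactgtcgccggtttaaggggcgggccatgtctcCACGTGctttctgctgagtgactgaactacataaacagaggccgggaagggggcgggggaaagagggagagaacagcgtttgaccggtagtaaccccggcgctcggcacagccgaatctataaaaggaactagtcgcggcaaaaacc
The windows lie at chr13:119690101-119690350 (Hmgcs1, plus strand), chr5:114444019-114444268 (Mvk, plus strand), chr15:82147019-82147268 (Srebf2, plus strand), chr13:45389492-45389741 (Mylip, plus strand) and chr4:53159896-53160145 (Abca1, minus strand).

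The promoter table held 23 of the 29 genes, and motifs were searched on both strands of every window of a gene. The CCAAT box (CCAAT), a site of the factor NF-Y that often stands beside sterol elements, was found in 19 of the 23 genes (82.6%), against 37.5% of the 27025 genes in the table and 40.2% of the table's genes that were measured on these arrays. It was present in 12 of the 13 synthesis enzymes searched and in 7 of the 10 other genes. Mvk held 5 copies, Hmgcs1 and Mylip held 3 each, Srebf2 held 1, and none was found in Abca1. The sterol regulatory element core CACCCCAC was found in Hmgcs1 and Acat2, 2 of 23 genes (8.7%) against 2.98% of all genes and 3.44% of the measured ones. In Hmgcs1 it overlaps a match to TCACNCCAC that begins 137 bases before the start, and no other member held that motif (1.22% of all genes). The full sterol regulatory element of the classic form (0.0814% of all genes) was found in none of the 23. An exact consensus LXR element, a direct repeat with 4 spacer bases, was also found in none of them. That exact form occurs in 4 of the 27025 genes (0.0148%), so its absence here says little. LXR elements that differ from this consensus were not searched, so the lower-case letters of the Abca1 window do not show that it lacks one. Abcg1 was not among the 23 genes. The E-box CACGTG was found in 5 of 23 genes (6.86% of all genes, 9.51% of the measured ones), among them Abca1, 147 bases before the start. Of 4 GATA motifs, AGATAA was found in Npc2 (11.4% of all genes), TGATAA in Insig2 (9.21%), AGATAG in Hsd17b7 (8.89%) and TGATAG in Dhcr7 (7.3%), so that 17.4% of the genes searched held at least 1 against 29.7% of all genes and 21.7% of the measured ones. A match is a description of the letters and does not show a bound site.

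On the GATA1 siRNA array most of the 16 listed enzymes of cholesterol synthesis had close to the same signal as on the control siRNA array. Several genes of sterol regulation, transport and export had higher signals. The 16 synthesis enzymes had a median log2 difference (GATA1 siRNA minus control siRNA) of -0.01 and ran from -0.39 to 0.18. The 13 other genes had a median of 0.33 and ran from -0.20 to 1.01. That median was 0.14 with the brightest probe of each gene, 0.24 with another background correction (normexp) and at most 0.39 in the other settings. These 13 join the regulators (median 0.11), the transport genes (0.25) and the export and storage genes (0.44). Separate lists of further uptake and transport genes and of further LXR and export genes had medians of 0.13 and -0.11. The exporter gene Abca1 was 2.02-fold higher, and Srebf2, Mylip, Soat1, Npc1, Abcg1 and Srebf1 were 1.26-fold to 1.4-fold higher. The Abca1 probe is dim, and its log2 difference of 1.01 became 0.24 with normexp, where it was not past 1.5-fold. Normexp was run with an offset of 50 added to each signal, which draws the differences of dim probes toward 0. Srebf2, at 0.48, stood at 0.14 on its brighter probe alone. Dhcr7, which performs the last step of cholesterol synthesis in one branch of the pathway, was 1.31-fold lower. Each group is 1 array of 1 RNA pool, so no difference has a replicate check and no p-value is given.

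Signals are given as the processed signal divided by the 75th percentile of the array's probes, called the scaled signal. A probe was used where both arrays had it well above background and unsaturated. All 29 genes were measured in this sense, through 39 of their 42 probes. Of them, 1 gene (Abca1) was at least 1.5-fold higher (a log2 difference of 0.58), against 1.83% of all 20413 measured genes, and 0 genes were at least 1.5-fold lower, against 2.76%. With a smaller size rule, a log2 difference of 0.32, 7 genes were higher (24.1% of the 29) against 7.31% of all measured genes, and 1 was lower against 9.5%. The 7 higher genes were 2 of 5 regulators, 2 of 4 transport genes, 3 of 4 export and storage genes and 0 of 16 synthesis enzymes. With normexp, Abca1 (0.24), Mylip (0.26), Soat1 (0.29) and Srebf1 (0.24) fell under this smaller rule. Srebf2 (0.42), Npc1 (0.38) and Abcg1 (0.43) still passed it, though Srebf2 stood at 0.14 on its brighter probe. The matching share of all genes with normexp is not given here. Over all measured genes the median difference was 0.01 with an SD of 0.29. Of all genes past 1.5-fold, 39.9% were higher on the GATA1 siRNA array, and 53.2% with the authors' scaling.

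**Figure D1:**
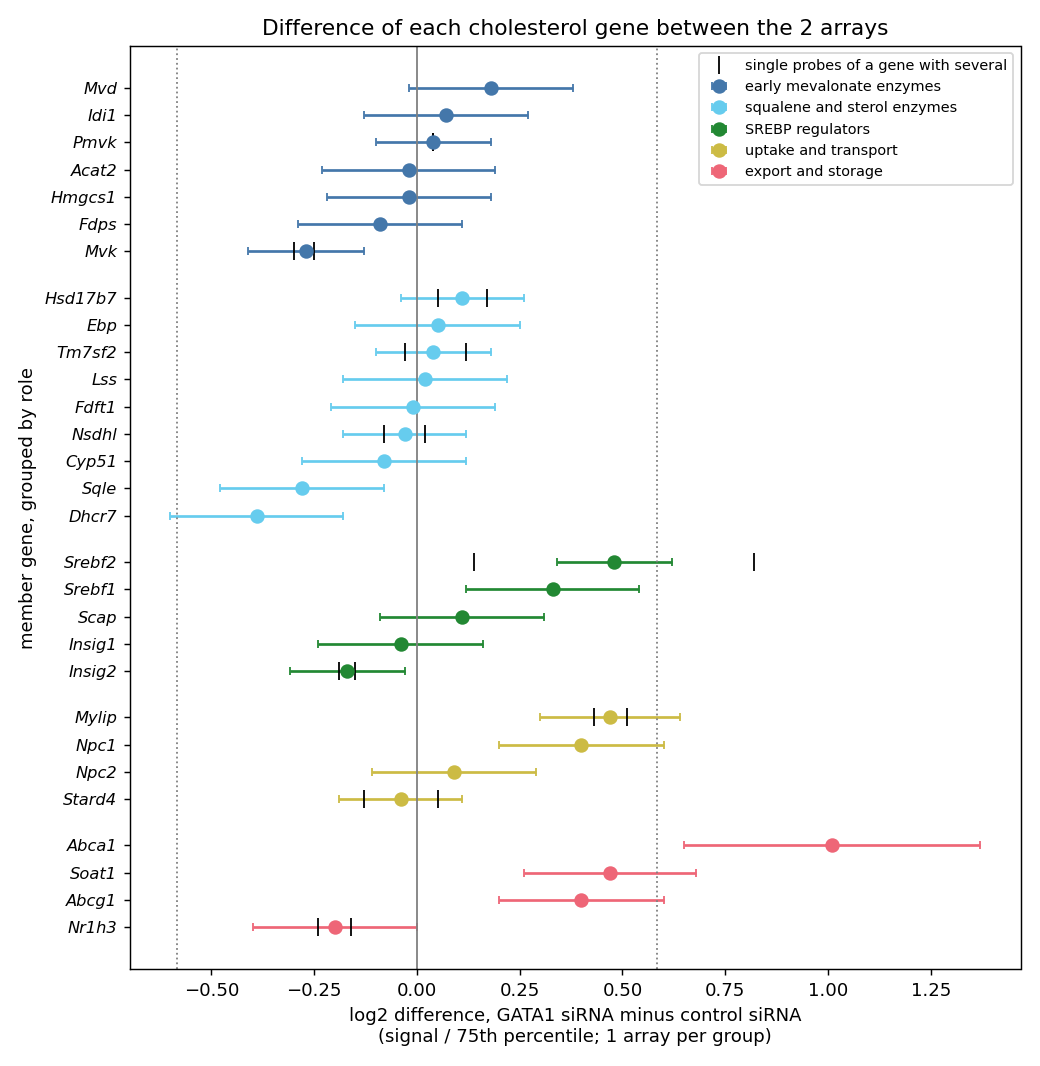
Log2 difference of each of the 29 genes (horizontal axis, GATA1 siRNA minus control siRNA) by role (vertical axis); points are gene values, bars the scanner software's error, ticks single probes of genes with several, and dotted lines 1.5-fold. The synthesis enzymes lie between -0.39 and 0.18, and Abca1, at 1.01, is the gene past 1.5-fold.

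The 7 early enzymes act on the path from acetyl units to farnesyl diphosphate, and their median difference was -0.02, from -0.27 to 0.18. The reductase that makes mevalonate is not among them, so these values do not cover that step. Acat2, a cytosolic thiolase that joins 2 acetyl groups, had a scaled signal of 0.637 (control siRNA) and 0.626 (GATA1 siRNA). Hmgcs1, the synthase of the next step, had 33.2 and 32.8. Both differed by -0.02, less than the scanner software's errors of 0.21 and 0.20, and the sign of each turns with the authors' scaling. Mvk, the kinase that phosphorylates mevalonate, was lower, at 8.07 and 6.67, a log2 difference of -0.27 with an error of 0.14. Its 2 probes gave -0.30 and -0.25, and its difference stayed between -0.32 and -0.21 under the alternatives. Pmvk, the kinase that follows, had 6.41 and 6.58, and both of its probes gave 0.04. Mvd, the decarboxylase that makes isopentenyl diphosphate, had 1.54 and 1.75 (0.18, error 0.20). Idi1, which isomerises that product, had 15.9 and 16.7 (0.07), and Fdps, which builds farnesyl diphosphate, had 28.3 and 26.6 (-0.09). Mvk was the single early enzyme whose difference was larger than the scanner error. The values of Pmvk (-0.00 with loess), Acat2 and Hmgcs1 are too near 0 for a sign.

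The 9 enzymes from squalene to cholesterol had a median difference of -0.01. Fdft1, which condenses farnesyl units to squalene, had scaled signals of 2.57 (control siRNA) and 2.54 (GATA1 siRNA), a difference of -0.01. Sqle, the epoxidase that commits squalene to sterols and a control point of the pathway, had 45.4 and 37.4, a difference of -0.28 with an error of 0.20. Its difference ranged from -0.34 to -0.22 under the alternatives. Lss, which closes the ring, had 4.13 and 4.18. Cyp51, the lanosterol demethylase, had 1.01 and 0.955. Their differences of 0.02 and -0.08 were smaller than their errors of 0.20, and that of Lss changes sign with quantile or loess scaling. Tm7sf2, a sterol reductase, had 1.59 and 1.64 (0.04), with probes of opposite sign at -0.03 and 0.12. Nsdhl and Hsd17b7, the dehydrogenase and reductase that remove a methyl group, stood at -0.03 and 0.11. The 2 probes of Nsdhl disagree in sign (-0.08 and 0.02), and Hsd17b7 stood at -0.11 once another of its probes, above background on the control siRNA array only, was included. Ebp, the sterol isomerase, had 56.4 and 58.3 (0.05; -0.03 at the lowest of the scalings). Dhcr7 was the lowest of the 29 genes, with 0.762 and 0.58, a difference of -0.39 with an error of 0.21. It rests on 1 probe (mm9, chr7:151033874-151033933, plus strand, transcript NM_007856), and its difference was between -0.39 and -0.33 under the alternatives. Sqle and Dhcr7 were the 2 enzymes of this group whose differences were larger than their errors.

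**Figure D2:**
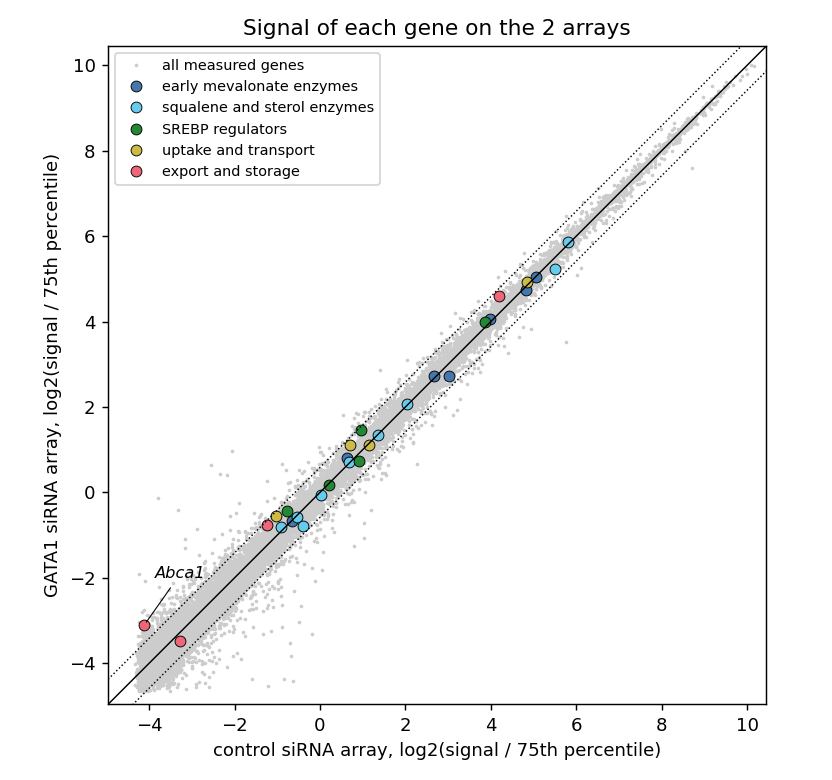
Scaled signal of each gene on a log2 scale in the control siRNA array (horizontal axis) and the GATA1 siRNA array (vertical axis); grey points are the 20413 measured genes, coloured points the 29 cholesterol genes by role, the solid line equality and dotted lines 1.5-fold. Abca1 lies at the dim end and above the upper dotted line, and the other 28 genes lie between the dotted lines.

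The regulators of the SREBP system had a median difference of 0.11, and the genes of the SREBP proteins themselves were the higher ones. Srebf2, which encodes the main activator of cholesterol synthesis genes, had scaled signals of 1.96 (control siRNA) and 2.74 (GATA1 siRNA), a 1.4-fold difference (log2 0.48, error 0.14). Its 2 probes disagree in size. The probe at chr15:82030068-82030127 (mm9, plus strand) had processed signals of 227.4 and 450.4 and gave 0.82. The probe at chr15:82034765-82034824, with signals of 1559.1 and 1930.4, gave 0.14. Both probes are assigned to transcript NM_033218, and with the brighter probe alone Srebf2 stood at 0.14. Srebf1, which encodes a regulator of fatty acid genes and, in part, of sterol genes, had 0.588 and 0.738. Its difference was 0.33 with an error of 0.21 on 1 probe, and it lay between 0.24 and 0.39 under the alternatives. Scap, the escort protein, had 14.6 and 15.8 (0.11, error 0.20). Insig1, itself an SREBP target in many cells, had 1.16 and 1.13. Its difference of -0.04 was smaller than its error of 0.20, and it was 0.02 with the authors' scaling. Insig2 had 1.88 and 1.67 (-0.17, error 0.14), with its probes at -0.19 and -0.15, each within its own error of 0.20. Thus the gene values of Srebf1 and Srebf2 were higher and that of Insig2 was slightly lower, each by less than 1.5-fold. The brighter Srebf2 probe, at 0.14, was within its own error of 0.20.

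Among the genes of uptake and intracellular transport, Mylip and Npc1 were higher and the other 2 differed by less than their errors. The median of the 4 genes was 0.25. None of the 4 is a lipoprotein receptor and the highest, Mylip, acts against such receptors, so this median gives no direction for uptake. Mylip, the ubiquitin ligase that removes lipoprotein receptors from the cell surface and an LXR target, had 0.49 and 0.679, a 1.38-fold difference (log2 0.47, error 0.17). Its probes gave 0.43 and 0.51, the second from a dim probe, and the gene stood at 0.26 with another background correction. Npc1, the membrane protein that exports cholesterol from lysosomes, had 1.64 and 2.17, a 1.32-fold difference (0.40, error 0.20; 0.38 to 0.46 under the alternatives). Npc2, the soluble lysosomal protein that hands cholesterol to NPC1, had 28.6 and 30.4, a difference of 0.09 with an error of 0.20. Stard4, a cytosolic sterol carrier and an SREBP target, had 2.23 and 2.17, a difference of -0.04 with probes at -0.13 and 0.05. The sign of Stard4 turns with the authors' scaling.

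The genes of export and storage had the highest median of the 5 roles, 0.44, and Nr1h3 was the member below 0. Abca1, the transporter that loads cholesterol onto apolipoproteins, had 0.0577 (control siRNA) and 0.116 (GATA1 siRNA), a log2 difference of 1.01 with an error of 0.36. Its 1 probe (mm9, chr4:53043944-53044003, minus strand, transcript NM_013454) is dim, with processed signals of 17.5 and 39.5. With another background correction (normexp) Abca1 stood at 0.24 and was not past 1.5-fold, and it has no value when a signal of 100 is required. Of the 6357 measured genes with a mean signal under 100, 3.45% were at least 1.5-fold higher. Abcg1, the transporter that moves cholesterol to lipoprotein particles, was bright, with 18.4 and 24.4 (processed signals of 5584.2 and 8285.2; mm9, chr17:31252580-31252639, plus strand), a 1.32-fold difference. Its log2 difference of 0.40 had an error of 0.20 and lay between 0.35 and 0.46 under the alternatives. Soat1, which esterifies cholesterol for storage in droplets, had 0.423 and 0.585 (mm9, chr1:158358766-158358825, minus strand), a 1.38-fold difference (0.47, error 0.21). It lay between 0.29 and 0.53 under the alternatives. Nr1h3, which encodes LXR alpha, had 0.103 and 0.0901, a difference of -0.20 with an error of 0.20 over 2 dim probes that gave -0.24 and -0.16. Thus Abcg1 and Soat1 were higher, and Abca1 was higher on a dim probe. The Nr1h3 difference was not larger than its error, and the activity of LXR was not tested.

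**Figure D3:**
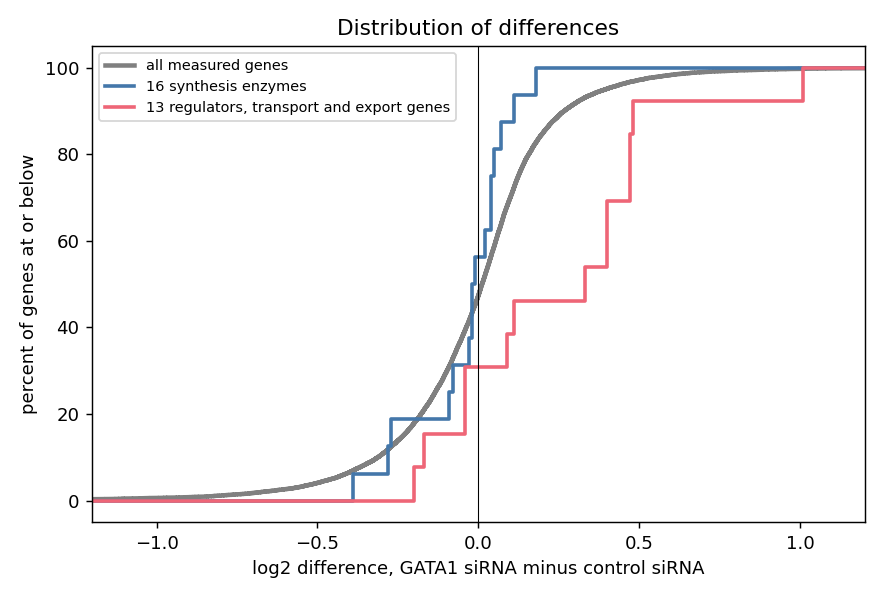
Cumulative percent of genes (vertical axis) at or below each log2 difference (horizontal axis) for all 20413 measured genes (grey), the 16 synthesis enzymes (blue) and the 13 regulators, transport and export genes (red). The red line runs to the right of the grey line with a median of 0.33 (0.14 to 0.39 over the settings), and the blue line has a median of -0.01.

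The precision of these values is that of spots on an array and not of cells or animals. For probes with 10 spots, the spread of the difference between spots had a median SD of 0.24 for probes with a mean signal under 100, 0.07 for 100 to 1000 and 0.04 for 1000 or more. Of the 29 genes, 10 had several measured probes, with a median SD between probes of 0.07, and in 7 of these the probes had the same sign. The differences of 11 genes were larger than the scanner software's error: Abca1, Srebf2, Mylip, Soat1, Npc1, Abcg1 and Srebf1 above 0, and Insig2, Mvk, Sqle and Dhcr7 below 0. The share of all measured genes past their own error is not given here, so this count does not show an excess among the 29. The signs of these 11 were the same under every alternative that gave them a value. Signals of different probes cannot be set against each other as levels, because probes differ in how well they bind, so the order of the genes by abundance is not given.

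**Figure D4:**
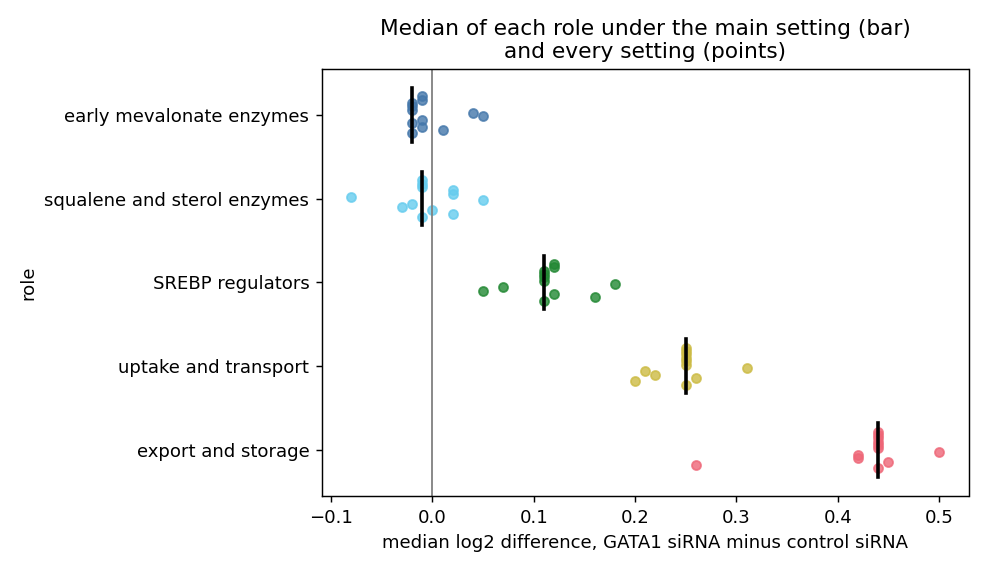
Median log2 difference of each role (horizontal axis) under the main setting (black bar) and under every setting tried (points), by role (vertical axis). The medians of uptake and transport (0.20 to 0.31) and of export and storage (0.26 to 0.50) lie above 0 in each setting, and those of the synthesis enzymes lie on both sides of 0.

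Other genes of the pathway were taken from 5 lists. The 8 further synthesis genes had a median of 0.08, and 0 of them passed the smaller size rule in either direction. The largest differences were those of Acly, which makes cytosolic acetyl-CoA (0.28), Lbr, a sterol reductase of the nuclear envelope (0.26), and Sc4mol, the older name of a sterol methyl oxidase (-0.15). The 9 genes that process or degrade SREBP components also had a median of 0.08 and 0 past the smaller rule, with the SREBP proteases Mbtps1 at 0.24 and Mbtps2 at 0.18 and the ubiquitin ligase Rnf139 at 0.17. Of 11 genes of fatty acid synthesis, 1 was at least 1.5-fold higher and 0 lower, beside 1.83% and 2.76% of all measured genes, with a median of 0.08. That gene was Fads2, the fatty acid desaturase of polyunsaturated fats, with scaled signals of 0.327 and 0.516 (0.66, error 0.16 over 2 probes). Scd2, a desaturase that makes monounsaturated fats (-0.30), and Elovl5, an elongase (0.26), came next in size. Of 15 further genes of lipoprotein uptake and sterol transport, 12 were above 0 with a median of 0.13, and 0 passed 1.5-fold. Of all measured genes 52.7% were above 0, and 68.1% of those with a mean signal of 1000 or more. The largest was Lrp1, a large endocytic receptor, with 0.231 and 0.32 (0.47, error 0.22), followed by Stard3nl, an endosomal tether (0.31), and Lipa, the lysosomal acid lipase that frees cholesterol from its esters (0.31).

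The list of LXR partners, oxysterol enzymes and further export genes had a median of -0.11 over 8 measured genes of 13, and 2 were at least 1.5-fold lower, beside 2.76% of all measured genes and 6.13% of those with a mean signal under 100, where Rxra lies. Soat2, the second enzyme that esterifies cholesterol, had scaled signals of 14.0 (control siRNA) and 8.07 (GATA1 siRNA), a 1.73-fold difference (log2 -0.79, error 0.20 on 1 probe, -0.85 to -0.73 over the scalings). Soat2 was thus lower where Soat1 was higher. Rxra, a partner receptor of LXR, had 0.109 and 0.0722 (-0.59, error 0.30), at dim signals. Nceh1, which hydrolyses cholesterol esters, stood at 0.22, and Nr1h2, which encodes LXR beta, at -0.11. Abcg5, Ch25h, Cyp7b1, Cyp27a1 and Lcat were not well above background on both arrays.

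The knockdown is seen in Gata1 itself, which had scaled signals of 54.1 (control siRNA) and 11.6 (GATA1 siRNA), 4.68-fold lower on 1 probe. Markers of mast cells were all measured (10 of 10), with a median of -0.06 and summed scaled signals of 2530 (control siRNA) and 2330 (GATA1 siRNA). Of the 10, 1 was at least 1.5-fold lower and 0 higher. The chymase Mcpt4 was 1.84-fold lower (-0.88), the tryptase Tpsb2 had 371 and 254 (-0.55), and Fcer1a, the alpha chain of the IgE receptor, stood at -0.17. Kit, the stem cell factor receptor, stood at 0.03 and Cpa3, the granule carboxypeptidase, at 0.04, with signs that turn under other scalings. Several macrophage and monocyte markers were higher beside the export, transport and SREBP genes. Of 18 on the array 14 were measured, 11 of them above 0, and 4 were at least 1.5-fold higher against 1 lower, with a median of 0.39. For comparison with this and the other marker lists, 1.83% of all measured genes were higher and 2.76% lower by that rule, and 52.7% were above 0. Of genes with a mean signal under 100, 3.45% were higher and 6.13% lower. Their summed scaled signal was 19.2 (control siRNA) and 28.6 (GATA1 siRNA). Ms4a7 (1.09), Cd68, a lysosomal glycoprotein (1.07), and Maf (0.85) were higher, Cx3cr1 was lower (-0.94), Csf1r, the receptor that defines the lineage, differed by 0.02, and C1qa, Cd163 and Mertk were among those not well above background on both arrays. Neutrophil markers had a median of 0.54 over 14 of 16 genes, 12 of them above 0, with 6 at least 1.5-fold higher and 0 lower. Itgb2l (1.01, at a dim mean signal of 41.4), Ltf, which encodes lactoferrin (0.79), and the granule genes Ngp (0.75) and Camp (0.67) were the highest. Csf3r (-0.24) and Ctsg (-0.37) were below 0. Their summed scaled signals were 450 and 426, of which Csf3r held 265 and 224 and Ctsg 103 and 79.9. Such sums weight each gene by how bright its probe is, so they give no direction for a list. Of 4 measured erythroid markers, the globin genes Hba-a2 (1.0), Hba-a1 (0.69) and Hbb-b1 (0.59) were higher, and Epor, the erythropoietin receptor, was lower (0.47 and 0.157, -1.58). The median of those 4 was 0.64, and it was 0.11 over 7 genes when dim probes were not filtered out (summed scaled signals of 10.8 and 16.7 over the 4). Eosinophil markers had a median of -0.49 over 8 genes (33.5 and 25.1). Of these, 2 were at least 1.5-fold lower, the granule protein genes Epx (-0.85) and Prg3 (-0.71). Siglec5 (0.60, at a dim mean signal of 24.7) was the 1 that was higher. Dendritic cell markers had a median of 0.43 over 7 genes, with 0 at least 1.5-fold higher and 1 lower, the chemokine gene Ccl17 (-0.61). H2-Aa, a class II antigen-presenting gene, was just under that size (0.58). ABCA1, ABCG1, NPC1, MYLIP and SOAT1 are also made by macrophages, and the part of these other cells in the cholesterol gene differences was not tested. In bulk RNA, a change in the number of cells of a type and a change in RNA per cell cannot be told apart.

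**Figure D5:**
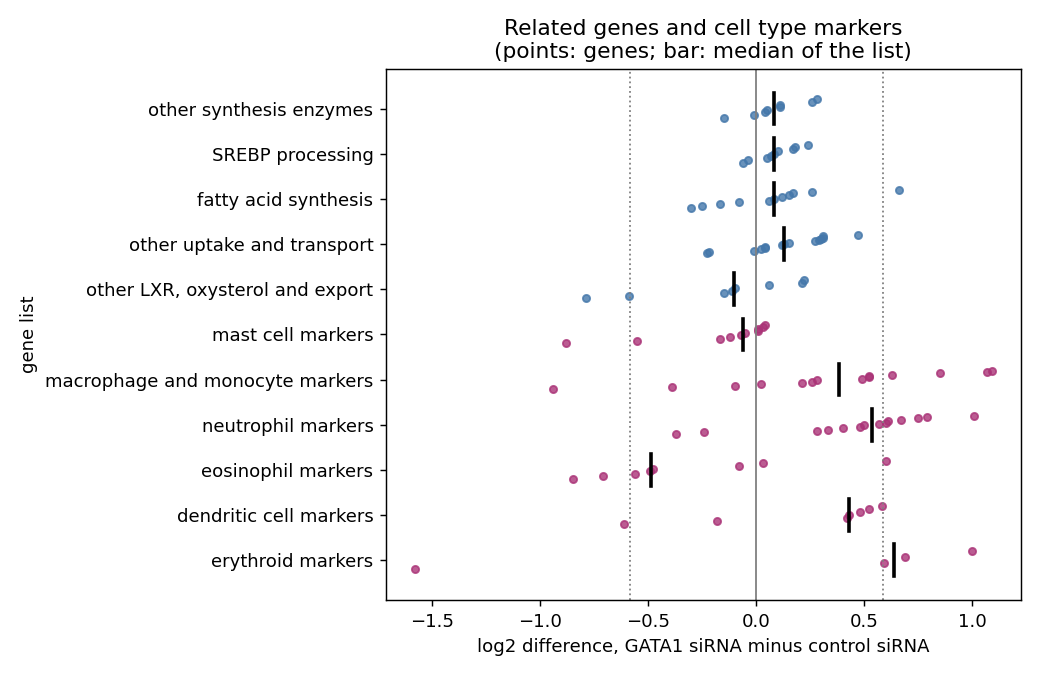
Log2 difference of single genes (horizontal axis) in the lists of related pathway genes (blue) and cell type markers (purple), with the median of each list as a bar (vertical axis: list; dotted lines: 1.5-fold). Macrophage and monocyte markers (median 0.39) and neutrophil markers (0.54) lie mostly above 0, and the list of further LXR and export genes (-0.11) holds Soat2 at -0.79.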

How the data were processed

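Spot intensity, in scanner units, comes from the authors' run of Agilent Feature Extraction 10.7.3.1, per the file headers, with background subtraction and detrending and no scaling between arrays. A deposited table of normalized intensity equals the processed signal over each array's median (21.9 and 23.6, found by matching values); it served as an alternative scaling. Outlier spots (234 of 59305) and control spots were left out, repeated spots averaged on the log2 scale, and signals divided by the 75th percentile of 55659 probes, 303.2 (control siRNA) and 340.0 (GATA1 siRNA). Of the probes, 52.7% and 55.2% were well above background on the 2 arrays. A gene's value is the mean of its measured probes. The error is the root sum of squares of the scanner software's relative errors, divided by the number of spots or probes averaged. This treats probes on the same arrays as independent, so genes with several probes have smaller errors. Differences are log2 values computed here from the deposited intensity. Member genes, lists, motifs and alternatives were chosen with earlier results of these data known. The genes named are all 29 members, Gata1, the 3 largest differences in each list of related genes and up to 4 in each marker list; Nr1h2, Scd1, Fads1, Csf1r, Kit, Cpa3, Csf3r and Ctsg were chosen after their values were seen. Calculations used Python 3.11.15, R 4.3.3 and limma 3.58.1, and were tested on simulated data.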

Additional observations from a re-analysis of the deposited data

How the results depend on the processing

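Alternatives were normexp background correction, 4 other scalings, no filter or a stricter filter on dim probes, the brightest or median probe, outlier spots kept, spots with at least 2 neighbours differing 4-fold left out, and other size rules. The count of members at least 1.5-fold higher was 1, and it was 0 with normexp and 0 when signals of 100 were required on both arrays, since Abca1 then has no value. With the smaller size rule (log2 0.32) it was 7 in the main setting, and the count of lower members was 1 in place of 0. Of those 7, Abca1, Mylip, Soat1 and Srebf1 fell under the smaller rule with normexp. The median of the 13 regulators, transport and export genes (0.33) was 0.14 with the brightest probe, 0.24 with normexp and up to 0.39 in the others; that of the erythroid markers (0.64) was 0.11 with no filter. Each role median moved by less than the median scanner error of its single genes in every alternative. No error of a role median was computed, and that of export and storage went from 0.44 to 0.26 with normexp. Of 317 member values under alternatives, 312 moved by less than their error and 5 by more: Abca1 (0.24) and Mylip (0.26) with normexp, Srebf2 with its brighter probe (0.14), and Fdft1 (-0.49) and Hsd17b7 (-0.11) with no filter on dim probes. Many of the 317 could hardly move, so this count does not measure robustness. The spot filters touch no member probe, the median of a member's measured probes equals their mean, and 19 members have 1 measured probe. Abca1, the single member past 1.5-fold, kept its sign in every alternative that gave it a value, and 10 members near 0 changed sign in some alternative. Over all genes, 374 passed the 1.5-fold rule upward and 564 downward, against 111 and 159 with normexp, 135 and 158 with the stricter filter and 1791 and 2752 with no filter. Normexp was run with an offset of 50 added to each signal, where the processed signals of Abca1 were 17.5 and 39.5. Adding a constant brings the log2 differences of dim probes nearer to 0. How much of each normexp change comes from the offset was not tested. No member probe lies at an outlier spot or at 1 of the 753 spots with such neighbours. No paired analysis was possible because each group has 1 array. Signal over background limits the values of Abca1 and Nr1h3.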

Other observations

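Of the 42 probes for the cholesterol genes, 3 were not used because they were not well above background on both arrays, and each belongs to a gene whose other probes were. The second Hmgcs1 probe, assigned to the transcript AK031297, had processed signals of 16.0 (control siRNA) and 22.5 (GATA1 siRNA), where the measured Hmgcs1 probe had 10062.9 and 11166.0. The second Fdft1 probe had 14.5 and 8.4, and the third Hsd17b7 probe, assigned to another transcript model, had 18.1 and 14.0. The difference also moved with brightness over all measured genes, with a median of -0.08 for genes with a mean signal under 100, 0.00 for 100 to 1000 and 0.05 for 1000 or more. Abca1 and Nr1h3 lie in the dim class, where 39.0% of genes were above 0.

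The enzymes that esterify cholesterol differed in opposite directions, Soat1 at 0.47 and Soat2 at -0.79, a pattern chosen after the values were seen. Of 4 fatty acid desaturases, Fads2 stood at 0.66, Fads1 at 0.06, Scd1 at -0.25 and Scd2 at -0.30, and Fads2 alone of these 4 passed the smaller size rule. With 1 array per group, these are values of 2 RNA pools and have no replicate check.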
